A study of Mus musculus with 3 samples.

Results

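The 47 genes described here encode proteins of the actin cytoskeleton and of focal adhesions, and they are part of the 21951 protein-coding genes in GENCODE M21. They were taken by name for the function of their proteins, with no threshold on the site list, but earlier results of these data were known. A predicted m6A (N6-methyladenosine) site was assigned to a gene when it lay inside the gene's span on the same strand. Of the 47 genes, 33 held at least 1 site, which is 70.2% with a 95% Wilson interval of 56.0% to 81.3%. Over all protein-coding genes the same count was 5080 of 21951, or 23.1%. The list carries no expression values, so neither share could be set against the abundance of the transcripts.

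The data come from RAW264.7, an established macrophage line of mouse origin, although the series' design text calls it human. Poly(A)+ RNA of 3 untreated biological replicates was profiled by miCLIP2, in which an antibody against m6A is crosslinked to RNA with UV light and leaves truncations or C-to-T changes in the cDNA. The authors pooled the replicates into 1 list of 19301 sites that the classifier m6Aboost scored between 0.5 and 1. All 19301 positions read as A in the mouse genome GRCm38. Shares of sites over all protein-coding genes count a site once for each such gene whose span holds it, 20035 counts in all. The score states how firmly the classifier called a site, and it does not measure how much of the RNA is methylated. Read counts, coverage and replicate values are not part of the list, so the depth of any site is unknown and no spread between replicates can be given. Intervals below are 95% Wilson intervals on counts of sites, genes or motifs. They cover counting error only, and sites of 1 transcript are not replicates.

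Actin monomers assemble into polar filaments that are nucleated, elongated, crosslinked, pulled on by myosins and taken apart again. In macrophages this turnover drives migration and the engulfment of particles. Focal adhesions join the filaments through talin, vinculin and their partners to integrins, the receptors for the extracellular matrix. m6A is laid down mostly in the DRACH motif, where D is A, G or U, R is A or G, and H is A, C or U, and it is best known from long exons and from the surroundings of stop codons.

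The macrophage label was set against markers by the presence of sites alone. Of 10 macrophage markers, 6 held sites, 39 in all, led by Cd14 with 13 sites and Csf1r with 11 sites. Adgre1, Cd68, Itgam and Mertk held 0 sites. None of 6 embryonic stem cell, 6 fibroblast, 5 epithelial or 6 T or B cell markers held a site. Presence of a site requires a transcript, whereas absence of one does not show that a transcript is missing.

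The 47 genes held 167 sites, 0.865% of the list, and none of these sites lay in the span of a second gene. The median member with a site held 3 of them, equal to the median of all protein-coding genes with a site. The counts were uneven. Tns3 held 21 sites and Myo9b 17, together 22.8% of the member sites, and the 6 members with most sites held 50.3%. At least 5 sites were found in 12 members (25.5%, interval 15.3% to 39.5%), beside 6.98% of all protein-coding genes. At least 10 sites were found in 6 members (12.8%, interval 5.98% to 25.2%), beside 1.71% of all protein-coding genes. At the other end, 6 members had a single site and 14 had none.

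**Figure D1:**
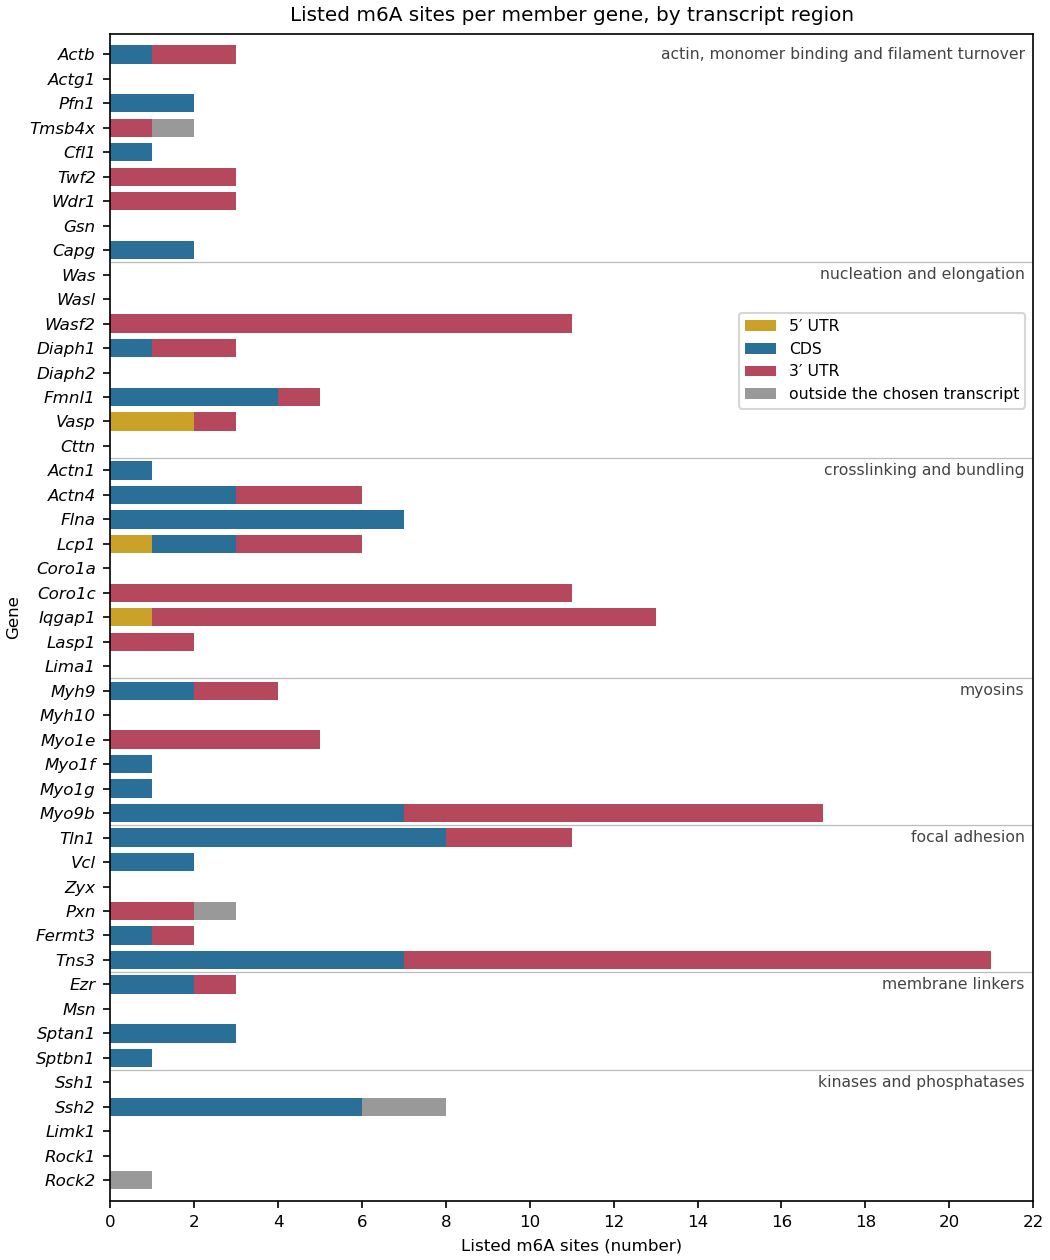
Number of listed m6A sites (horizontal axis) in each of the 47 genes (vertical axis), grouped by role and coloured by the region of the transcript with the longest coding sequence. Tns3 with 21 sites and Myo9b with 17 have the longest bars, and 14 genes have no bar.

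Among the 9 genes of actin itself, monomer binding and filament turnover, 7 held 16 sites, with 9 in the 3′ UTR and 6 in the coding sequence (CDS). Actb, which encodes cytoplasmic beta-actin, spans chr5:142903115-142906754 on the minus strand and held 3 sites. Its highest score was 0.942, at a site 7 nt downstream of the first base of the stop codon. A further 3′ UTR site of Actb scored 0.670, and a site in exon 4 at codon 222 scored 0.539. Twf2 encodes a twinfilin, which binds monomers and caps filament ends, and spans chr9:106203108-106215389 on the plus strand. Its 3 sites, with scores of 0.887, 0.913 and 0.883, followed the stop codon at 11, 36 and 66 nt and shared the pentamer GGACT. All sites of Wdr1, a cofactor of cofilin in filament disassembly, also lay in the 3′ UTR, between 280 and 346 nt after the stop codon, with scores of 0.570 to 0.831.

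The small monomer-binding and severing factors had few sites. Pfn1 encodes profilin, which delivers monomers to growing ends, and held 2 CDS sites, with scores of 0.789 and 0.506. Tmsb4x encodes thymosin beta 4, which sequesters monomers. Its 2 sites scored 0.705 and 0.888, and the second lay downstream of the end of the chosen transcript, in the 3′ UTR of other annotated isoforms. Cfl1, the filament-severing cofilin, held 1 CDS site with a score of 0.656. Capg, which caps filament ends in macrophages, held 2 CDS sites with scores of 0.518 and 0.828. No site was listed in Actg1, the gene of gamma-actin, or in Gsn, the gene of the severing protein gelsolin.

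The highest-scoring sites of each role are printed with 10 genomic bases on either side, 5′ to 3′ on the strand of the gene, because they show the motif in its context. Here and below capitals mark the pentamer centred on the site. In this role they are the Actb site in the window chr5:142903783-142903803 (minus strand) and the middle Twf2 site in the window chr9:106215019-106215039 (plus strand), both in the 3′ UTR.
Actb: ttctaggcGGACTgttactga
Twf2: gggcacgtGGACTacagggtt

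Of the 8 genes of nucleation and elongation, 4 held 22 sites, all 22 at DRACH, with 15 assigned to 3′ UTRs, 5 to the CDS and 2 to the 5′ UTR. Wasf2 encodes a WAVE protein, which activates the Arp2/3 complex at the leading edge, and spans chr4:133130505-133199756 on the plus strand. All of its 11 sites lay in the 3′ UTR of 3882 nt, in an exon of 4040 nt, with a lowest score of 0.504, a median of 0.813 and a highest of 0.951. The Wasf2 sites were not spread evenly. Within 41 nt, from 61 to 101 nt after the stop codon, 4 of them were found, whereas the remaining stretch beyond 1907 nt held none. Of the 74 DRACH motifs in this 3′ UTR, 11 were listed, or 14.9%, and of the 25 in its CDS none was.

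Fmnl1 encodes a formin of leukocytes, which elongates unbranched filaments, and spans chr11:103171107-103198901 on the plus strand. Its pattern differed from that of Wasf2, with 4 of 5 sites in the CDS, each in an exon shorter than 400 nt. Scores of Fmnl1 ran from 0.518 to 0.793 with a median of 0.669. Vasp, which encodes a protein that protects growing ends from capping, was 1 of 3 members with a site in the 5′ UTR. Its 2 sites there scored 0.654 and 0.556 and lay within 28 nt of transcript, and its remaining site, in the 3′ UTR, scored 0.759. Diaph1, a formin that elongates unbranched filaments, held 3 sites with scores of 0.615, 0.838 and 0.749, of which 2 were in the 3′ UTR. Was, Wasl, Diaph2 and Cttn held none. Was and Wasl encode the WASP activators of the Arp2/3 complex, Diaph2 a second diaphanous formin and Cttn the branch stabiliser cortactin.

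Both highest scores of this role belonged to Wasf2, in the windows chr4:133196414-133196434 and chr4:133195963-133195983 (plus strand), at 552 and 101 nt after the start of the stop codon. Their scores were 0.951 and 0.947.
Wasf2 at 552 nt: gcctctaaAGACTgtctcaca
Wasf2 at 101 nt: gggacaaaGAACTgcaagggg

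The 9 genes of crosslinking and bundling proteins held more sites than any other role, 46 in 7 genes, with 31 assigned to 3′ UTRs, 13 to the CDS and 2 to 5′ UTRs. Iqgap1 encodes a scaffold that ties filaments to Rac, Cdc42 and calmodulin signalling, and spans chr7:80711583-80825974 on the minus strand. It held 13 sites, 12 in the last exon and 1 in the 5′ UTR, with scores from 0.559 to 0.935 and a median of 0.821. None of the 108 DRACH motifs in the Iqgap1 CDS was listed, whereas 10 of the 39 in its 3′ UTR were (25.6%). Coro1c, which encodes a coronin that acts on branched actin, spans chr5:113842436-113908758 on the minus strand. It had the highest density of all members, 3.15 sites per kb of spliced transcript. All 11 Coro1c sites were in the 3′ UTR, with scores from 0.550 to 0.965 and a median of 0.740.

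Flna and Actn4 carried most of the CDS sites of this role. Flna encodes filamin A, which crosslinks filaments into networks, and all of its 7 sites were in the CDS, spread from position -7733 to position -77 relative to the first base of the stop codon. Their scores ran from 0.552 to 0.891. Actn4, an alpha-actinin of non-muscle cells, held 6 sites, split evenly between CDS and 3′ UTR, with scores from 0.691 to 0.806. Lcp1 encodes L-plastin, a bundling protein of leukocytes, and was the only member with sites in the 5′ UTR, the CDS and the 3′ UTR, with 1, 2 and 3 sites. Lasp1, an actin-binding adaptor of adhesions, held 2 sites in the 3′ UTR with scores of 0.572 and 0.887. Actn1 held 1 CDS site with a score of 0.648. Coro1a, the leukocyte coronin, and Lima1, a stabiliser of filaments, held none.

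The highest score of this role, 0.965, belonged to a Coro1c site 22 nt after the start of the stop codon. It lay in GGACG, which ends in G and so falls outside DRACH, and it was also the highest score among the 18 member sites outside DRACH. The Iqgap1 site with a score of 0.935 lay 628 nt after the start of the stop codon. Both are in the 3′ UTR on the minus strand, in the windows chr5:113844319-113844339 and chr7:80713196-80713216.
Coro1c: acctccacGGACGgtggctgc
Iqgap1: ccatttagAGACTgagtgggc

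Myosins move along actin filaments and put them under tension. Of 6 myosin heavy chain genes, 5 held 28 sites, 17 of them in Myo9b. Myo9b encodes a class IX myosin and spans chr8:71272714-71360713 on the plus strand. Its 10 sites in the 3′ UTR took up 41.7% of the 24 DRACH motifs there, and its 7 CDS sites all lay in exons 2 and 22, of 895 and 864 nt. All 17 Myo9b sites were at DRACH, with scores from 0.604 to 0.922 and a median of 0.801. Myo1e, a myosin that links membrane to actin at sites of uptake, spans chr9:70207350-70399766 on the plus strand. It held 5 sites, all in the 3′ UTR, with scores from 0.631 to 0.848 and a median of 0.764.

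The other myosins had lower median scores. Myh9, the heavy chain of non-muscle myosin IIA, held 4 sites, also split evenly between CDS and 3′ UTR, with scores from 0.529 to 0.678 and a median of 0.556. Myo1f and Myo1g, class I myosins of blood cells, held 1 CDS site each, with scores of 0.502 and 0.509. The Myo1f site lay in GTACT, outside DRACH. Myh10, the heavy chain of non-muscle myosin IIB, held no site although its transcript has 197 DRACH motifs.

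The highest myosin scores were 0.922, in the Myo9b 3′ UTR at 601 nt after the start of the stop codon, and 0.876, in exon 2 of Myo9b at codon 41. Their windows are chr8:71360562-71360582 and chr8:71290408-71290428 (plus strand).
Myo9b 3′ UTR: ggagccagGGACTtggaacct
Myo9b exon 2: gccaccaaGGACAgcacaaca

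Of the 6 genes of focal adhesion proteins, 5 held 39 sites, of which 20 belonged to 3′ UTRs and 18 to coding sequences. Tns3 encodes tensin 3, which binds integrin tails and actin, and spans chr11:8431652-8664535 on the minus strand. Its 14 sites in the 3′ UTR lay between 225 and 1199 nt after the start of the stop codon, and its 7 CDS sites in exons 17 and 22, of 1245 and 641 nt. Scores of Tns3 ran from 0.513 to 0.991, with a median of 0.747. No Tns3 site lay within 200 nt of the stop codon. Tln1 encodes talin 1, which activates integrins and couples them to actin, and spans chr4:43531519-43562691 on the minus strand. It held 8 CDS sites, each in an exon shorter than 400 nt, and 3 sites in the 3′ UTR.

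The scores of Tln1 ran from 0.505 to 0.756 in the CDS and from 0.654 to 0.981 after the stop codon, so the regions overlapped. Pxn, the adaptor paxillin, held 3 sites with scores of 0.818, 0.703 and 0.898, the last of them downstream of the chosen transcript in the 3′ UTR of another isoform. Vcl, which encodes the talin partner vinculin, held 2 sites in exon 16 with scores of 0.573 and 0.723. Fermt3, the integrin activator kindlin-3 of blood cells, held 1 CDS site scoring 0.726 and 1 site in the 3′ UTR scoring 0.740. Zyx, which encodes zyxin, a tension-responsive adaptor, held none.

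The highest scores of the role were the highest of all member sites, 0.991 in Tns3 at 607 nt and 0.981 in Tln1 at 40 nt after the start of the stop codon. Both are in the 3′ UTR on the minus strand, in the windows chr11:8433879-8433899 and chr4:43531912-43531932.
Tns3: gggggtaaGGACTctgtgatt
Tln1: cagcccagAGACTgtgcctgc

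The 4 genes of proteins that link actin to the membrane had few sites, 7 in 3 genes, and 6 of these lay in the CDS. Ezr encodes ezrin, which ties filaments to membrane proteins, and spans chr17:6738041-6782784 on the minus strand. It held 2 CDS sites, with scores of 0.758 and 0.685, and 1 site 16 nt after the start of the stop codon with a score of 0.730. Sptan1 encodes the alpha chain of non-erythroid spectrin and spans chr2:29965560-30031451 on the plus strand. Its 3 sites, with scores of 0.526, 0.765 and 0.650, were all in the CDS, in exons of 147, 218 and 138 nt. Sptbn1, which encodes a beta chain of spectrin, held 1 CDS site with a score of 0.638 in a transcript with 211 DRACH motifs, the most of any member. Msn, the gene of the ezrin relative moesin, held no site. Of the 535 DRACH motifs of the role, 1.31% were listed, beside 3.39% over all members and a range from 1.04% to 5.22% over the 7 roles. The 1.04% is that of kinases and phosphatases, where 3 of 9 sites lay outside the chosen transcripts and do not enter the share.

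The highest scores were those of Sptan1 at codon 917 in exon 18 (0.765) and of Ezr at codon 166 in exon 5 (0.758). Their windows are chr2:29996916-29996936 (plus strand) and chr17:6754030-6754050 (minus strand).
Sptan1: ggcagtacGGACTatgggaag
Ezr: ctcagcagGGACCagtgggag

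Kinases and phosphatases that set the activity of cofilin and myosin were the role with the fewest members holding sites, 2 of 5. Ssh2 encodes a slingshot phosphatase, which reactivates cofilin, and spans chr11:77216287-77460220 on the plus strand. It held 8 sites, and its scores ran from 0.698 to 0.937 with a median of 0.756. Of these, 6 lay in the coding part of the last exon of 2132 nt, and 2 lay downstream of the chosen transcript in the 3′ UTR of another isoform. Rock2, a kinase that promotes myosin contractility, spans chr12:16894895-16987823 on the plus strand and held 1 site with a score of 0.851. The transcript of Rock2 with the longest CDS is annotated without a stop codon, and the site lay in the 3′ UTR of another isoform. No site was listed in Ssh1, in Limk1, the kinase that inactivates cofilin, or in Rock1.

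The highest scores of the role were both in Ssh2, 0.937 at codon 1158 and 0.875 in the 3′ UTR of the longer isoform. Their windows are chr11:77454654-77454674 and chr11:77457888-77457908 (plus strand).
Ssh2 codon 1158: ctgacaatGAACTgtctccag
Ssh2 3′ UTR: tcaccaatGGACActgctctc

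Over all roles, 149 of the 167 member sites lay in DRACH (89.2%, interval 83.6% to 93.1%), beside 92.0% over all protein-coding genes. Member sites used 27 pentamers. GGACT led with 35 of the 167 sites (interval 15.5% to 27.7%), beside 19.2% over all protein-coding genes. GAACT had 22 sites and AGACT 17. GGACA had 13 (7.78%, interval 4.61% to 12.9%), beside 13.2% over all protein-coding genes. The 18 sites outside DRACH were found in 9 genes, with 4 in Tns3, 3 each in Iqgap1 and Tln1, 2 each in Coro1c and Flna, and 1 each in Pfn1, Wdr1 and Myh9, besides the only site of Myo1f. Their median score was 0.564, below the 0.758 of member sites at DRACH. Over all protein-coding genes the medians were 0.607 and 0.746. The classifier takes the sequence and the transcript region as inputs, so scores by motif or by region are not independent of them.

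In the 3′ UTR lay 93 of the 167 member sites (55.7%, interval 48.1% to 63.0%), beside 42.1% over all protein-coding genes. The CDS held 65 (38.9%, interval 31.9% to 46.5%), beside 49.8%, and the 5′ UTR held 4, in Vasp, Lcp1 and Iqgap1. The remaining 5 (2.99%, interval 1.29% to 6.82%) lay downstream of the chosen transcript in other isoforms, beside 2.43% outside the chosen transcript over all protein-coding genes. None was intronic (upper bound of the interval 2.25%), beside 3.56%. The 3.56% can include a site in an intron of 1 gene and an exon of another, which is counted for both. No member site lay in a second gene, and the part of such sites in the 3.56% was not tested. In 6 members every site was in the 3′ UTR, whereas 10 members had CDS sites only, so the overall split hides genes of opposite kinds. Median scores of member sites were 0.764 after the stop codon and 0.703 inside the CDS, beside 0.786 and 0.699 over all protein-coding genes. A score of at least 0.9 was reached by 16 member sites (9.58%, interval 5.98% to 15.0%), beside 8.88% over all protein-coding genes. Of these 16, spread over 9 genes, 15 were in the 3′ UTR, and the other was the Ssh2 site at codon 1158. The split by region of such sites over all protein-coding genes is not given here.

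Within 200 nt of the stop codon lay 29 of 162 exonic member sites (17.9%, interval 12.8% to 24.5%), beside 32.3% over all protein-coding genes. Of these, 25 were downstream of the start of the stop codon and 4 upstream. Without Tns3, which has no site in the window, the members' share was 20.6%. The last exon held 101 of the 162 (62.3%, interval 54.7% to 69.4%), beside 68.4%. Only 8 of the 65 CDS sites of members were in a last exon (12.3%, interval 6.37% to 22.5%), and 6 of them were in Ssh2. Over all protein-coding genes 45.2% of CDS sites were in a last exon. Whether any of these differences from all protein-coding genes exceeds chance was not tested.

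**Figure D2:**
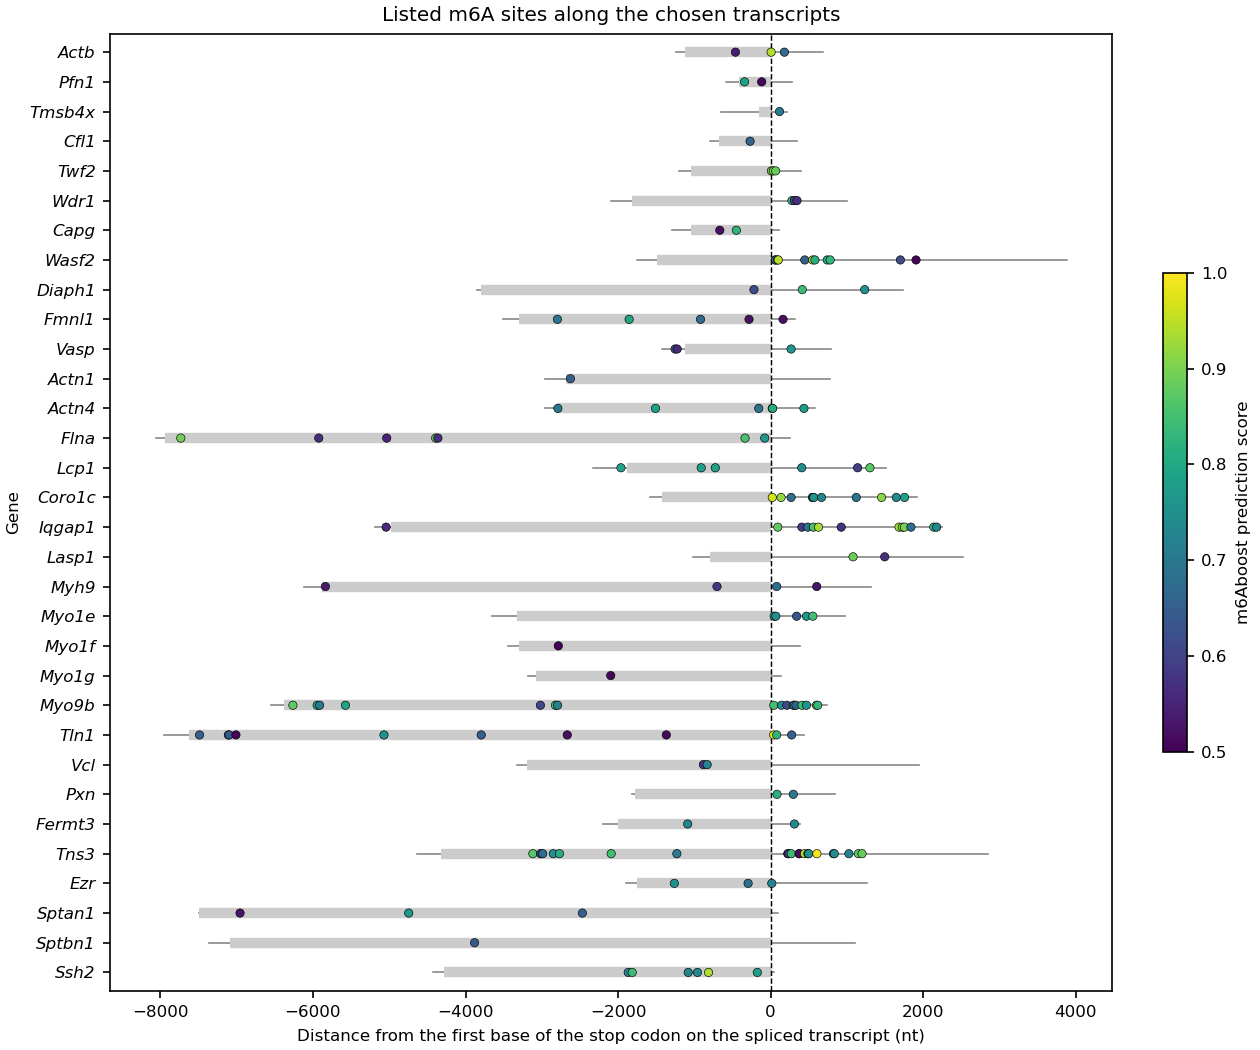
Listed m6A sites (points, coloured by m6Aboost score) against their spliced distance in nt from the first base of the stop codon, with 1 line per gene, thick over the CDS and thin over the UTRs. Wasf2, Coro1c and Myo1e have sites in the 3′ UTR only, Flna and Sptan1 in the CDS only, and Tns3 and Myo9b in both. The 5 sites outside the chosen transcripts are not drawn, and Rock2 has no line.

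CDS sites outside the last exon are of interest because m6A in internal exons is known mostly from long ones. Among members, 19 of 57 such sites lay in exons of at least 400 nt (33.3%, interval 22.5% to 46.3%), beside 73.9% over all protein-coding genes. The 19 were 7 sites each of Tns3 and Myo9b, 3 of Flna, and 1 each of Actb and Sptbn1. The share was 11.6% without Tns3 and Myo9b, 5.56% on transcripts with better annotation support and 50% at a minimum score of 0.7, so it depends on these choices. All 8 CDS sites of Tln1, all 4 of Fmnl1 and all 3 of Sptan1 lay in shorter exons. Of exonic member sites, 76.5% were at least 100 nt from the nearest exon junction (interval 69.5% to 82.4%), beside 87.4% over all protein-coding genes. Among those closer were Actn4 at codon 881, 2 nt from a junction, and Tln1 at codon 1653, 3 nt from a junction.

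Transcripts differ in the number of motifs they offer, so the listed sites were also set against all DRACH motifs of the chosen transcripts. Across the 47 genes, the numbers of sites and of DRACH motifs had a Pearson coefficient of 0.35 and a Spearman coefficient of 0.26. Over the 47 members, 144 of 4242 DRACH motifs were listed (3.39%, interval 2.89% to 3.98%). Over the 33 members with a site it was 144 of 3011 (4.78%, interval 4.08% to 5.60%), beside 4.63% over all protein-coding genes with a site. The share of listed motifs differed by place. In members with a site, 14.2% of 3′ UTR motifs were listed (interval 11.6% to 17.2%), against 2.42% of CDS motifs (interval 1.87% to 3.13%). Over all protein-coding genes with a site these shares were 4.99% and 4.55%. Over all 47 members, those without a site included, they were 8.03% (interval 6.54% to 9.83%) and 1.84% (interval 1.42% to 2.38%).

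Exon class separated the motifs of the members as well. Of motifs in the last exon of members with a site, 12.5% were listed (interval 10.3% to 15.1%), beside 6.35% over all protein-coding genes with a site. Over all 47 members it was 93 of 1268, or 7.33% (interval 6.02% to 8.90%). The values that follow are for genes with a site. In other exons of at least 400 nt it was 17 of 172 motifs, or 9.88% (interval 6.26% to 15.3%), beside 8.97%. Of these 17, Myo9b held 7 and Tns3 held 6. In other exons under 400 nt 34 of 2096 motifs were listed, or 1.62% (interval 1.16% to 2.26%), beside 0.985%. Exons under 400 nt other than the last had the smallest share of listed motifs of these classes, in the members and over all protein-coding genes with a site. Within 200 nt of the stop codon 10.9% of member motifs were listed (interval 7.59% to 15.4%), beside 12.7%, and further away 4.40%, beside 3.56%.

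**Figure D3:**
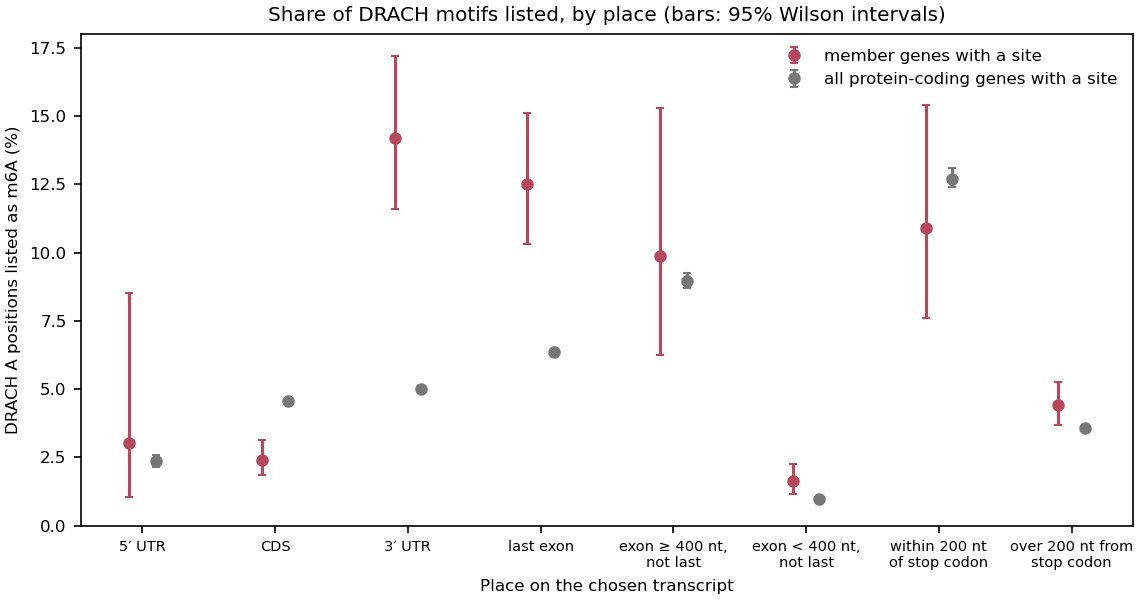
Share of DRACH motifs that are listed as m6A (vertical axis, %) by place on the transcript (horizontal axis), in member genes with a site and in all protein-coding genes with a site. Points are shares and bars 95% Wilson intervals. The 3′ UTR shows the widest gap, 14.2% against 4.99% (8.03% over all 47 members, not drawn), and short exons that are not the last show the lowest shares.

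The median density of members with a site was 1.08 exonic sites per kb of spliced transcript, with quartiles of 0.538 and 1.56. Over all protein-coding genes with a site the median was 0.880, with quartiles of 0.448 and 1.67. Coro1c (3.15), Tns3 (2.81), Myo9b (2.33) and Pfn1 (2.32) were densest, and Pfn1 reached this with 2 sites on 861 nt. Among members with an exonic site, Sptbn1 was the sparsest, at 0.118 per kb. Across the 47 genes, the number of sites and spliced length had a Pearson coefficient of 0.38 and a Spearman coefficient of 0.21. For sites and the length of the 3′ UTR the values were 0.11 and -0.05. These describe 47 genes that share 1 list and 1 pool of libraries.

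Many sites had a close neighbour. Of the 162 exonic member sites, 76 had another site of the same gene within 100 nt on the spliced transcript (46.9%, interval 39.4% to 54.6%), beside 60.1% over all protein-coding genes. They formed 28 runs in 14 genes. The longest run held 8 sites over 429 nt in the 3′ UTR of Myo9b, from 42 to 470 nt after the start of the stop codon, with scores from 0.605 to 0.850. Tns3 had a run of 5 sites over 128 nt, and Iqgap1 a pair of runs of 4 sites, over 157 and 219 nt. The densest runs were 3 sites over 17 nt in Coro1c and 2 sites over 7 nt in Actn4. Without Tns3 and Myo9b the share with a neighbour was 37.1%. The authors counted each read without a C-to-T change at a single position, next to its 5′ end. Whether neighbouring calls are otherwise independent of each other cannot be checked from the list.

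In the CDS, 42 of 65 member sites fell on position 2 of the codon (64.6%, interval 52.5% to 75.1%), with 12 on position 1 and 11 on position 3. Over all protein-coding genes position 2 took 48.9%. GAC, the codon in which a central A is followed by C and preceded by G, accounted for 32 of the 65 sites, and AAC for 7. All 8 CDS sites of Tln1 and all 3 of Sptan1 were at position 2, as were 6 of the 7 in Flna. Myo9b and Fmnl1 differed. Position 1 took 4 of 7 CDS sites in Myo9b, and position 3 took 3 of 4 in Fmnl1.

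Paralogs encode similar proteins, so 12 pairs were compared gene by gene. In 8 pairs only 1 of the genes held sites, in 3 pairs both did, and in the pair Was and Wasl neither did. This tally depends on low scores. At a minimum score of 0.7, applied to this tally after seeing the data, 10 pairs had sites in 1 gene, 0 in both and 2 in neither, since Actn1, Myo1f, Sptbn1 and Myh9 then had none. Actb held 3 sites and Actg1 0, with 32 and 33 DRACH motifs in transcripts of 1920 and 1952 nt. Coro1c held 11 and Coro1a 0, with 70 and 31 motifs. In 7 of the 8 pairs with sites in 1 gene, the gene with sites had fewer DRACH motifs than its paralog, and Coro1c was the exception. For Ssh2 and Rock2 this order comes from chosen transcripts with a 3′ UTR of 41 and 0 nt. In the CDS alone Ssh2 had 116 motifs and Ssh1 62, and Rock2 had 106 and Rock1 101. Ezr also had more CDS motifs than Msn, 40 and 37. Actb (18) and Diaph1 (73) had fewer CDS motifs than Actg1 (19) and Diaph2 (74). The same held for Myh9 (134) and Capg (23), beside Myh10 (145) and Gsn (45). Ssh2 held 8 sites, 6 of them on the chosen transcript, while Ssh1 held 0, and Diaph1 held 3 with 100 motifs while Diaph2 held 0 with 179. Likewise Myh9 held 4 and Myh10 0, Ezr 3 and Msn 0, Capg 2 and Gsn 0, and Rock2 1 and Rock1 0.

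Where both paralogs held sites the counts also differed, with 6 in Actn4 and 1 in Actn1, 5 in Myo1e and 1 in Myo1f, and 3 in Sptan1 and 1 in Sptbn1. Sites at aligned codons were possible only in the 2 pairs with CDS sites in both genes, Actn1 with Actn4 and Sptan1 with Sptbn1, and neither had any, also when a shift of 1 codon was allowed. Of 19 CDS sites with an aligned codon in the paralog, 6 had a DRACH motif at the same place (31.6%). None of these was listed, but 3 of them lie in Gsn, Msn and Ssh1, which have no site at all. Of all DRACH motifs in the CDS, 2.42% were listed in members with a site and 1.84% over all members. At such low shares, 6 motifs are too few to show whether aligned places are listed less often than others. The Ezr site at codon 166 lies in GGACC, and Msn has GGACC at its codon 166. The Capg site at codon 200 lies in GGACA, and Gsn has GGACA at its codon 247. The Actb site at codon 222 lies in AGACT, and Actg1 has GGATT there, which is outside DRACH. Levels of the paralogs are not in the list, and their part in these differences was not tested. The authors kept only reads with a unique place in the genome, and what this did to the counts of paralogs was not tested either. Of the 33 DRACH motifs of Actg1, 4 have 21-base surroundings that also occur whole in the Actb transcript, and of the 197 of Myh10, 1 occurs in Myh9. Msn and Coro1a share none with Ezr and Coro1c.

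The 14 members without a site were Actg1, Gsn, Was, Wasl, Diaph2, Cttn, Coro1a, Lima1, Myh10, Zyx, Msn, Ssh1, Limk1 and Rock1. Their spliced transcripts had a median of 3586 nt, beside 3824 nt for the 33 members with a site. Their median CDS was shorter, 1836 nt beside 2796 nt, and their median 3′ UTR longer, 1476 nt beside 739 nt. The median number of DRACH motifs was 67.5, beside 87.0. Together they have 1231 DRACH motifs, with a lowest count of 31 in Coro1a and a highest of 197 in Myh10. The list cannot tell a transcript that is absent or scarce in RAW264.7 from one that is present without a predicted site.

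Of 57 further genes of actin and adhesion, 40 held a site (70.2%), beside 23.1% of all protein-coding genes, with 145 sites in all. All 9 genes of the Arp2/3 complex, which nucleates branched filaments, held sites, 23 together, with most (5) in Arpc1b. All 4 WAVE complex partners held sites, 6 together. Of 7 integrin genes 5 held 44 sites, 21 in Itga4 and 13 in Itga5, whereas Itgam and Itgal held none. Of 8 adhesion signalling genes 3 held 19 sites, namely Ptk2b, Ptk2 and Parvg with 8, 7 and 4. The tropomyosin and myosin light chain genes held sites in 3 of 4 each, with 5 and 4 sites, the capping protein genes in 2 of 3, with 2 sites, and the PAK and DOCK genes in 3 of 4, with 12 sites. Of 14 other actin-binding genes 8 held 30 sites, led by Swap70 with 10. As in Wasf2, Coro1c and Myo1e, all sites of Itga4 lay in the 3′ UTR.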

How the data were processed

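The authors mapped miCLIP2 reads of 3 untreated RAW264.7 replicates to GRCm38 with STAR 2.7.3a, removed duplicates with UMI-tools 1.0.0, and kept PureCLIP peaks found in at least 2 replicates. The deposited unit is the m6Aboost prediction score of each site, pooled over replicates, and the depth per sample is not in the list. BED starts were read as 0-based and positions are printed 1-based. Sites were placed with GENCODE M21 (the authors used another release of this build) on the transcript with the longest CDS of each gene. Motifs were read as the site with 2 genomic bases on either side. Shares have 95% Wilson intervals, and no test was made, since 1 pooled list has no replicate values. The members and lists were chosen with earlier results of these data known. Genes given in full were the 2 with most sites per role, every paralog pair and each member without a site; positions in full were the 2 highest scores per role and the highest outside DRACH. Other members and sites were added after their values were seen. Paralog codons were aligned through their translations (BLOSUM 62, gap penalties 11 and 1). 1 list of pathway genes is not reported here. Placement was tested on simulated data. Python 3.11.15, NumPy 2.4.6, SciPy 1.17.1, pysam 0.24.0, Biopython 1.88 and matplotlib 3.10.9 were used.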

Additional observations from a re-analysis of the deposited data

How the results depend on the processing

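No paired analysis was possible because all 3 replicates belong to a single group, and since they were pooled, none could be left out. Of 81 recomputed summary values, 54 stayed within the 95% interval of the main share, or within 1.5 times the main count or median density. Among them were all values with sites within 5 nt collapsed and with the longest spliced transcript. Some of the 54 could not move and say nothing on stability. No member site lay in the span of a second gene, so leaving out sites in several genes changed nothing. The count of 0 paralog sites at aligned codons could not rise at a higher minimum score. The values that moved follow.

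A minimum score of 0.7 kept 103 sites. The share at DRACH was then 98.1%, in the 3′ UTR 63.1%, in the last exon 72.7%, in exons of at least 400 nt among other CDS sites 50%, and of DRACH motifs listed 2.29%. Of the 33 members with a site, 6 were left with none. Site counts of single members fell by over 1.5 times in 19 of the 33, among them Tln1 (11 to 4), Fmnl1 (5 to 1) and Myh9 (4 to 0). At 0.9 this held for all 33 members with a site. A minimum of 0.9 kept 16 sites in 9 members. The shares were then 93.8% at DRACH, 93.8% in the 3′ UTR, 6.25% in the CDS, 37.5% near the stop codon, 100% in the last exon, 25% with a neighbour, 0% of CDS sites at codon position 2 (1 site) and 0.354% of motifs, with a median of 0.401 sites per kb. No CDS site outside the last exon was left to give the exon-length share. The fewer sites kept by construction account for the lower counts, and the cause of the other shifts was not tested.

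With starts read as 1-based, 0% of sites lay in DRACH, and with R in place of D at its first base 79.6% did. Windows of 100 and 400 nt around the stop codon held 12.3% and 32.7% of sites, a neighbour window of 50 nt gave 36.4%, and exons of at least 200 nt held 54.4% of CDS sites outside the last exon. On supported transcripts only, the share in exons of at least 400 nt was 5.56%. There 4 members with 41 sites, Tns3 and Myo9b among them, had no such transcript and 7 others were read on another one, and the part of each was not tested. Leaving out Tns3 and Myo9b, chosen after seeing the data, gave 11.6% for that share, 2.80% of motifs and 37.1% with a neighbour.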
